A study of Mus musculus with 7 samples.

Results

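The 9 genes described here mark the arterial and venous ends of the vessel lining in mouse. The arterial genes are Bmx, Efnb2, Hey1, Gkn3 and Unc5b, and the venous genes are Ephb4, Nr2f2, Vcam1 and Vwf. They were taken by symbol from count files that list 32531 gene symbols, and all 9 had a row in every file and passed the filter on low counts, which left 17654 genes. All libraries were made from midbrain of adult control animals, given no treatment, of a single mouse line (Stard8-TRAP ES2342) that carries EGFP-tagged Rpl10a, a ribosomal protein, under Stard8 regulatory sequence. Translating ribosome affinity purification (TRAP) recovers the tagged polysomes with antibodies to EGFP. The 3 IP libraries (replicates 1, 2 and 4) hold the purified RNA and the 4 unbound libraries (replicates 1 to 4) hold the RNA left behind. No label says whether replicates came from separate or pooled animals, so p-values measure the spread between these libraries, which may be technical.

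Endothelial cells along a vessel are not alike. Notch signalling in arteries induces Hey transcription factors and the ligand ephrin-B2, whereas the nuclear receptor COUP-TFII, the product of Nr2f2, promotes vein identity and represses Notch signalling. Ephrin-B2 on arterial cells binds the receptor EphB4 on venous cells. In the brain these cells form the blood-brain barrier, and most of the network consists of capillaries with graded arterial and venous features.

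Depth ran from 52052340 to 76114634 counts in genes per library, so that 3 counts were worth 0.0376 to 0.059 CPM, the unit of level used below, which is relative to effective library size. Stard8, whose regulatory sequence drives the tag, averaged 352 CPM in IP libraries (388, 440 and 227 in IP 1, 2 and 4) and 4.23 CPM in unbound libraries. Rpl10a, the gene of the tagged protein, had 282, 345 and 358 CPM in IP 1, 2 and 4. In unbound 1 to 4 Rpl10a had 40.5, 326, 140 and 151 CPM, so its ranges overlapped. The series is labelled as a study of neurons, but 9 of 10 neuron markers were lower in IP (5 without IP 1 and 4 without IP 2). All 14 pan-endothelial markers and all 12 pericyte and smooth muscle markers were higher. Over all genes tested, 18.9% were lower and 20.5% higher at adjusted p below 0.05. IP 4 stood apart from the other IP libraries: its neuron markers summed to 6793 CPM, against 3154 in IP 1 and 3328 in IP 2, and its pan-endothelial markers to 1724 CPM, against 2273 and 2068. The markers of pericytes and smooth muscle summed to between 3966 and 5550 CPM in IP and between 36.9 and 54.9 CPM in unbound. The unbound libraries had 11839 to 18567 CPM of neuron markers and 22.5 to 28.0 CPM of pan-endothelial markers. Levels here are not resolved by cell, so fewer cells of a type and less RNA per cell cannot be told apart. In IP they reflect RNA recovered on tagged polysomes, so tag level and ribosome loading cannot be told apart from these either.

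RefSeq promoter windows (GRCm38.p6, the build also named mm10, from 250 bases before to 50 after the start site) matched 6 of the 9 genes, all but Hey1, Vcam1 and Vwf. For each gene only the first window listed was used, so alternative start sites were not covered. The 4 windows below are those of the steepest arterial gene, of the ephrin ligand and its receptor, and of the arterial gene with the lowest fold change. They are read 5′ to 3′ along the gene's own strand, with CG dinucleotides in capitals.
Bmx promoter, chrX:164258144-164258443, minus strand: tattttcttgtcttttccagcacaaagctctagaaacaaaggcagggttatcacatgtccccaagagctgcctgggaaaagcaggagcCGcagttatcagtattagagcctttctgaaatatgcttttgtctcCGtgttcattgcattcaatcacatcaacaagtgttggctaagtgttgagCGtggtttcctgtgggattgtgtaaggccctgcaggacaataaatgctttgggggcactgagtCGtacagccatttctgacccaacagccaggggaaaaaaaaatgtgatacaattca
Efnb2 promoter, chr8:8661193-8661492, minus strand: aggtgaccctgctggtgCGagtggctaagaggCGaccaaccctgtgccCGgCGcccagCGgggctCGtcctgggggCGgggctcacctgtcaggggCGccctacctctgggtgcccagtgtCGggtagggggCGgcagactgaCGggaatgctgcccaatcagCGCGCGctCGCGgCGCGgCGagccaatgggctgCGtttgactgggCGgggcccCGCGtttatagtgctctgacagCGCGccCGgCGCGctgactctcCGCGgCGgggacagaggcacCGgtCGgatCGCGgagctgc
Unc5b promoter, chr10:60831532-60831831, minus strand: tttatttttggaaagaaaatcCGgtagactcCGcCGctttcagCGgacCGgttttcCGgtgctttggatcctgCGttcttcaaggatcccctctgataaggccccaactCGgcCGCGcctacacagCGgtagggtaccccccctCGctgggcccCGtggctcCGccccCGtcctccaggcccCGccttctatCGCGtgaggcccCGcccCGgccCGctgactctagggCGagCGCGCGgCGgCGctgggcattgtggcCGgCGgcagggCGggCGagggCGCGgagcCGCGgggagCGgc
Ephb4 promoter, chr5:137349859-137350158, plus strand: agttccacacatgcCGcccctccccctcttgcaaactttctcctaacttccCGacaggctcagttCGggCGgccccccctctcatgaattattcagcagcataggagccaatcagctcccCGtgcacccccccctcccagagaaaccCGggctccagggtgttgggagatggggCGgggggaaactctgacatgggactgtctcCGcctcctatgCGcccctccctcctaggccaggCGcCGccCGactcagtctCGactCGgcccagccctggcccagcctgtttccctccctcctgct

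The Efnb2 and Unc5b windows held 35 and 36 CG dinucleotides, and 93.3% and 94% of 27025 mouse promoter windows of the same length held fewer. Ephb4 had 14, against a median of 7 over all windows. The windows used for Bmx, Gkn3 and Nr2f2 had 4, 5 and 2, and other start sites of these genes were not looked at. Short motifs were searched on both strands. The letters TGGGAA, the core of the site bound by the Notch effector RBPJ, occurred in Bmx alone among the 6 windows, 178 bases before the start site, and in 25.5% of all windows. The letters AGGTCA, the core of nuclear receptor sites (16% of all windows), and the SOX letters AACAAT (10.9%) occurred in none of the 6. The ETS letters CCGGAA (15.2%) occurred in Unc5b, and the KLF letters CACCC (56.7%) once each in Efnb2 and Nr2f2 and at 2 places in Ephb4. A match is a description of letters, not a binding site.

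IP was tested against unbound with edgeR's quasi-likelihood test over all 17654 genes, with Benjamini-Hochberg adjustment. Of the 5 arterial genes, Bmx, Gkn3 and Hey1 were higher in IP and Efnb2 and Unc5b were not called. All 4 venous genes were higher. Over all genes tested, 20.5% were called higher and 18.9% lower, 39.4% in either direction. The median log2 fold change was 0.83 over the 5 arterial and 3.68 over the 4 venous genes, beside -0.10 over all genes tested. The arterial median is the value of a single gene, Hey1. The longer lists of other arterial and other venous genes described below had medians of 4.39 and 4.24, without such a gap. Every IP library lay above every unbound library for the 7 called genes, as for 25.1% of all genes tested. These counts of 3 arterial and 4 venous genes were the same without any single library. Within the libraries that share index sequence ACAGTG (2 IP, 2 unbound) they were 2 and 4, and within index GTGAAA (1 IP, 2 unbound) 3 and 4. The GTGAAA comparison has no replicate of IP: its single IP library is assumed to vary like the unbound libraries. Its calls are therefore weak evidence wherever they are given. By the labels, the IP libraries ran in lanes L002 and L005 and the unbound libraries in lanes L001 and L003. No lane label is shared by both fractions, so lane and fraction cannot be told apart.

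**Figure D1:**
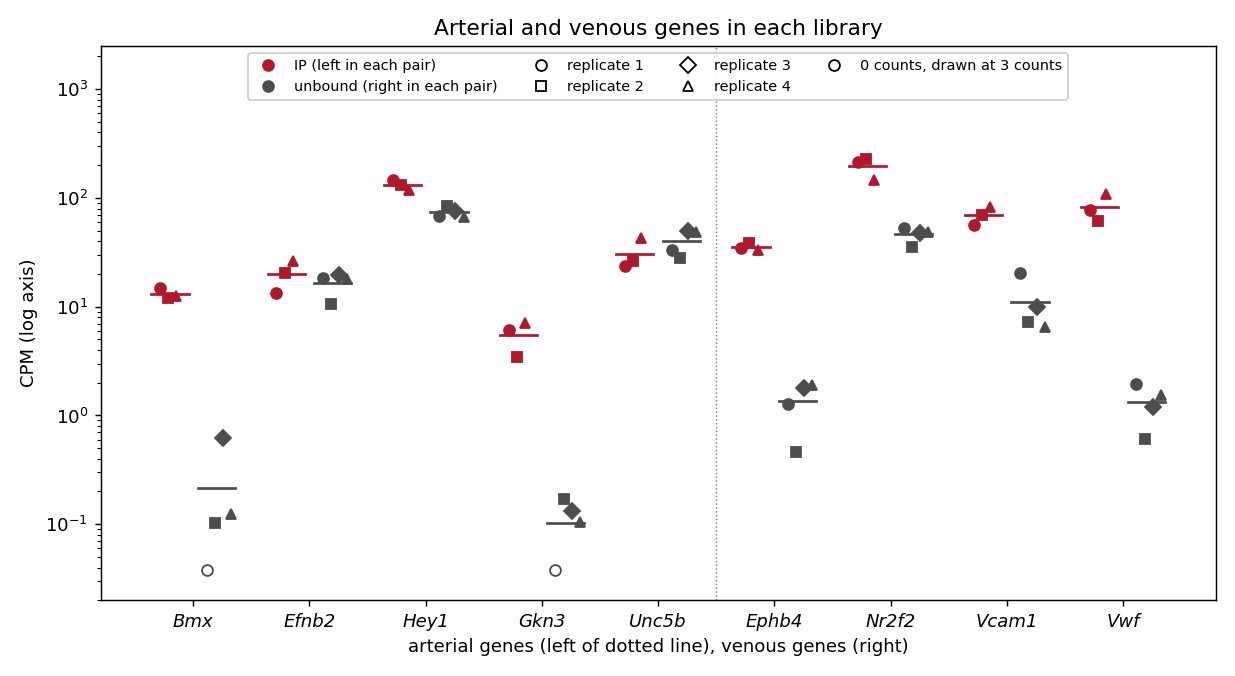
Level of each gene in every library in CPM on a log axis, with the 3 IP libraries left of the 4 unbound libraries and a line at each group's mean. Bmx, Gkn3, Ephb4 and Vwf are separated widely, with at most 1.97 CPM in any unbound library, whereas Efnb2 and Unc5b overlap between the groups.

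Bmx and Gkn3, the arterial genes with the widest separation, were near the detection limit in unbound RNA. Bmx encodes a Tec family tyrosine kinase found in arterial endothelium and endocardium (chromosome X, 164192842 to 164258193, minus strand). It had 14.8, 11.95 and 12.6 CPM in IP 1, 2 and 4, against 0, 0.103, 0.626 and 0.124 CPM in unbound 1 to 4. All IP values were close together, while among the unbound libraries 33 of the 46 counts came from unbound 3 and none from unbound 1. This gave a log2 fold change of 5.98 ± 0.94 (SE, edgeR adjusted p = 0.000654). It was 7.48 without unbound 3 and 5.53 without unbound 1, and 8.11 within index ACAGTG against 5.10 within index GTGAAA, where unbound 3 lies. The call held without either library and within index ACAGTG.

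Gkn3 encodes a gastrokine, a small secreted protein first known from the stomach, whose transcript marks arterial endothelium of the mouse brain (chromosome 6, 87383256 to 87388935, minus strand). It had 6.14, 3.43 and 7.08 CPM in IP 1, 2 and 4, against 0, 0.172, 0.133 and 0.106 CPM in unbound 1 to 4. Every unbound library had 10 counts or fewer, 23 in all, while the IP libraries had 460, 197 and 360. Gkn3 had a log2 fold change of 5.77 ± 0.88 (edgeR adjusted p = 0.000538). IP 2 was the lowest IP library, so that Gkn3 varied more among IP libraries (34.1% of its mean) than Bmx (11.2%).

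Hey1 was abundant in both fractions. It encodes a basic helix-loop-helix repressor induced by Notch (chromosome 3, 8663359 to 8667256, minus strand). It had 145, 132 and 119 CPM in IP 1, 2 and 4, against 68.7, 84.7, 76.3 and 66.2 CPM in unbound 1 to 4. The groups did not overlap, with every IP library above every unbound library. Hey1 had a log2 fold change of 0.83 ± 0.20 (edgeR adjusted p = 0.0084), a 1.78-fold difference. Within index ACAGTG it was 0.85 and lost its call (adjusted p = 0.0926), and over all alternatives the adjusted p ranged from 0.00038 to 0.0926.

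Efnb2 and Unc5b did not differ detectably between the fractions. Efnb2 encodes ephrin-B2, the transmembrane ligand of EphB4 (chromosome 8, 8617434 to 8661242, minus strand). It had 13.5, 20.4 and 26.4 CPM in IP 1, 2 and 4, against 18.4, 10.5, 19.4 and 18.1 CPM in unbound 1 to 4. The ranges overlapped, with the highest value in IP 4 and the lowest in unbound 2. The log2 fold change was 0.28 ± 0.31 (edgeR adjusted p = 0.51), with a 95% normal interval of -0.33 to 0.89. It was 0.04 without IP 4 and 0.51 without IP 1.

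Unc5b encodes a netrin receptor of the UNC5 family, found on arterial endothelium and also on neurons (chromosome 10, 60762593 to 60831581, minus strand). It had 23.5, 26.2 and 42.5 CPM in IP 1, 2 and 4, against 33.0, 27.8, 50.1 and 48.6 CPM in unbound 1 to 4. IP 1 and IP 2 lay below every unbound library and IP 4 lay among them. For Unc5b the log2 fold change was -0.38 ± 0.30 (edgeR adjusted p = 0.345, 95% interval -0.96 to 0.21). Without IP 4, the library with the highest neuron marker sum in IP, it was -0.68 (adjusted p = 0.122). The part of other cell types in the levels of Efnb2 and Unc5b was not tested.

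**Figure D2:**
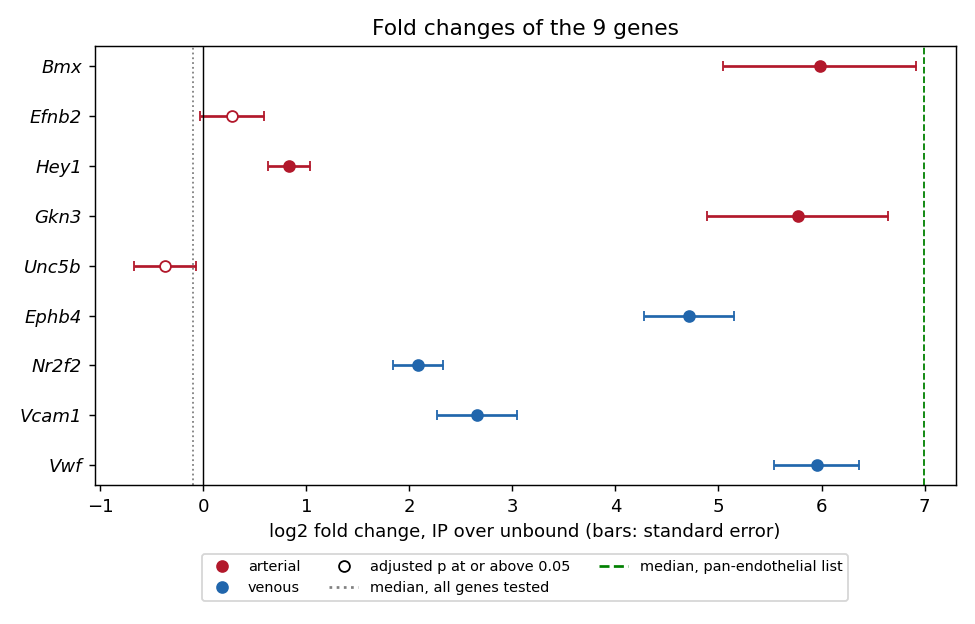
Log2 fold change of IP over unbound for the 9 genes, with bars of 1 standard error and open symbols where the adjusted p was 0.05 or more. All 9 lie below the median of the pan-endothelial list at 6.99 (dashed), and Efnb2 and Unc5b lie near the median of all genes at -0.10 (dotted).

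Among the venous genes, Vwf and Ephb4 separated the fractions most. Vwf encodes von Willebrand factor, the platelet-binding glycoprotein stored in endothelial Weibel-Palade bodies and made by megakaryocytes too (chromosome 6, 125546774 to 125686679, plus strand). It had 77.8, 61.2 and 109 CPM in IP 1, 2 and 4, against 1.97, 0.601, 1.2 and 1.54 CPM in unbound 1 to 4. IP 4 was the highest of all libraries. Vwf had a log2 fold change of 5.95 ± 0.42 (edgeR adjusted p = 3.27e-06). Of 5 tested platelet and megakaryocyte markers 2 were higher in IP, beside 20.5% of all genes tested. The number was 1 without IP 1, IP 4 or unbound 2, and within index ACAGTG. The list summed to between 58.4 and 74.1 CPM in IP and between 2.78 and 7.78 CPM in unbound. Most of that sum was Pf4, a chemokine that brain macrophages also express, with 56.2 CPM in IP and 0.207 CPM in unbound. Ppbp, the other marker called higher, had 3.6 CPM in IP and 0.714 CPM in unbound, with overlapping ranges. Gp9 was not called but lay above every unbound library in each IP library (means 1.97 and 0.298 CPM). Gp1bb (1.11 CPM in IP, 1.04 CPM in unbound) and the platelet integrin Itga2b (1.7 and 2.9 CPM) were not called either. The part of these cells in the Vwf level was not tested.

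Ephb4 encodes the venous receptor tyrosine kinase for ephrin-B2 (chromosome 5, 137350109 to 137378669, plus strand). It had 34.6, 38.9 and 33.1 CPM in IP 1, 2 and 4, against 1.28, 0.464, 1.78 and 1.89 CPM in unbound 1 to 4. The IP values varied little (8.39% of their mean), and unbound 2 was the lowest library. Ephb4 had a log2 fold change of 4.71 ± 0.44 (edgeR adjusted p = 1.83e-05), and 5.38 within index ACAGTG. In GENCODE M21 some of its exon bases lie opposite exons of Zan on the other strand, and likewise Nr2f2 and Vcam1 exons lie opposite noncoding antisense genes. How the counting treated strand is not known here, so reads of such pairs may not be told apart.

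Nr2f2 and Vcam1 were higher in IP on top of a clear unbound level. Nr2f2 encodes COUP-TFII, which also acts in pericytes, smooth muscle and some neurons (chromosome 7, 70351944 to 70366735, minus strand). It had 212, 230 and 146 CPM in IP 1, 2 and 4, against 53.3, 35.3, 47.1 and 49.0 CPM in unbound 1 to 4. IP 4 was the lowest IP library and still lay well above every unbound library. Nr2f2 had a log2 fold change of 2.08 ± 0.24 (edgeR adjusted p = 9.57e-05). The sum of the mural cell markers was also lowest in IP 4. So was Rgs5, its most abundant gene (2507, 2788 and 1632 CPM in IP 1, 2 and 4). Several other mural markers were instead highest in IP 4, and the part of mural cells in the Nr2f2 level was not tested.

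Vcam1 encodes an adhesion molecule that binds integrin alpha4 beta1 on leukocytes and is induced by inflammatory cytokines (chromosome 3, 116109949 to 116129688, minus strand). It had 56.5, 69.4 and 82.3 CPM in IP 1, 2 and 4, against 20.5, 7.16, 9.87 and 6.5 CPM in unbound 1 to 4. Unbound 1 was the highest unbound library but stayed below every IP library. The log2 fold change was 2.65 ± 0.39 (edgeR adjusted p = 0.000422), and 3.15 without unbound 1. Of the microglia and macrophage markers 9 of 9 were higher, beside 20.5% of all genes tested. They summed to between 1121 and 1187 CPM in IP and between 43.8 and 78.5 CPM in unbound. Astrocyte markers (5 of 7 higher, 2 within index ACAGTG) summed to between 1494 and 1799 CPM in IP and between 749 and 953 CPM in unbound, and the part of these cells in the Vcam1 level was not tested. Within index ACAGTG the Vcam1 log2 fold change was 2.19 (adjusted p = 0.0385) and within index GTGAAA 3.35.

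The ratio of an arterial gene to its venous counterpart within a library needs no scaling between libraries. Efnb2 had 0.389, 0.525 and 0.798 counts per Ephb4 count in IP 1, 2 and 4, against 14.3, 22.2, 10.8 and 9.53 in unbound 1 to 4. The 2 genes differ in length, so the ratios are compared between fractions only, and they did not overlap. The log2 ratio averaged -0.87 ± 0.52 in IP and 3.75 ± 0.54 in unbound (SD, n = 3 and 4, 2-sided exact permutation p = 0.0286), a difference of -4.62. Hey1 had 0.684, 0.573 and 0.815 counts per Nr2f2 count in IP 1, 2 and 4, against 1.29, 2.40, 1.62 and 1.35 in unbound 1 to 4. These ratios did not overlap either, although per kilobase of exon Hey1 lay above Nr2f2 in both fractions. The mean log2 ratio was -0.55 ± 0.25 in IP and 0.69 ± 0.41 in unbound (SD, n = 3 and 4, exact permutation p = 0.0286). Adjusted over the 2 ratios by Benjamini-Hochberg, the exact permutation p stayed 0.0286, the smallest that 3 against 4 libraries allow. Both ratios use the same counts as the fold changes above, so they restate those differences and add no separate evidence. Their genes are members that were chosen with earlier results of these data known.

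**Figure D3:**
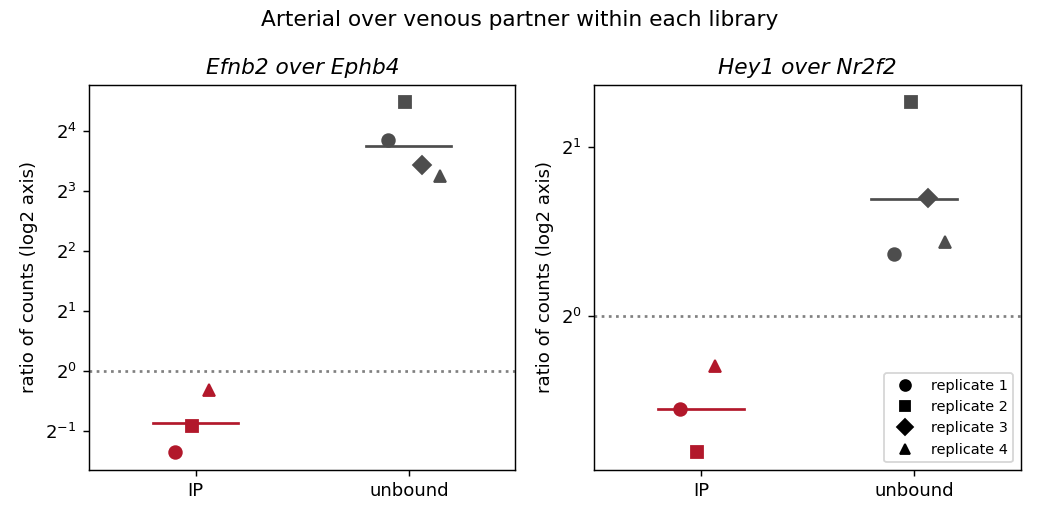
Counts of Efnb2 per count of Ephb4 (left) and of Hey1 per count of Nr2f2 (right) in each library on a log2 axis, with IP left of unbound and lines at the geometric means. All 3 IP libraries lie below a ratio of 1 (dotted line) and all 4 unbound libraries above it, in both panels.

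The 9 genes differed in how they compared with other endothelial transcripts. The counts of each were divided by the summed counts of 14 pan-endothelial genes in the same library, as a description without a test. Bmx came to 0.653% ± 0.0764 of that sum in IP and 0.886% ± 1.22 in unbound (SD, n = 3 and 4). Its unbound values were 0, 0.368, 2.68 and 0.494% in unbound 1 to 4, with a mean of 0.288% without unbound 3, and the mean log2 ratio was higher in IP by 0.87, opposite to the order of the means. Gkn3 came to 0.282% ± 0.123 in IP and 0.402% ± 0.28 in unbound, and Vwf came to 4.23% ± 1.82 in IP and 5.54% ± 2.73 in unbound (SD, n = 3 and 4). For these 3 genes and Ephb4 (1.77% ± 0.219 in IP and 5.63% ± 2.8 in unbound) the ratios overlapped between the fractions. The other 5 genes had lower ratios in every IP library than in any unbound library. Hey1 came to 6.55% ± 0.29 of the endothelial sum in IP and 300.1% ± 25.8 in unbound. Unc5b came to 1.59% ± 0.769 in IP and 164% ± 51.4 in unbound, and Efnb2 to 1.04% ± 0.472 in IP and 68.7% ± 21.3 in unbound. Nr2f2 (9.64% ± 1.36 in IP, 190.3% ± 46.4 in unbound) and Vcam1 (3.54% ± 1.15 in IP, 46.3% ± 30.9 in unbound) lay in the same direction. The unbound sums behind these ratios were small, between 1230 and 1795 counts per library.

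Levels of different genes were compared as CPM per kilobase of annotated exon (GENCODE M21, all exons of a gene merged). In IP the order from high to low was Hey1 (40.4 ± 4.08), Nr2f2 (22.7 ± 5.16), Vcam1 (7.83 ± 1.45), Ephb4 (7.66 ± 0.642), Gkn3 (6.48 ± 2.21), Vwf (5.14 ± 1.51), Unc5b (4.91 ± 1.65), Bmx (4.24 ± 0.476) and Efnb2 (2.93 ± 0.946; SD, n = 3). The ranges of Hey1 and Nr2f2 each lay above that of the next gene, and that of Bmx above that of Efnb2, whereas each neighbouring pair from Vcam1 down to Bmx overlapped in range. In unbound RNA the order was Hey1 (22.7 ± 2.55), Unc5b (6.37 ± 1.78), Nr2f2 (5.36 ± 0.892), Efnb2 (2.42 ± 0.598), Vcam1 (1.24 ± 0.732), Ephb4 (0.292 ± 0.14), Gkn3 (0.12 ± 0.086), Vwf (0.0825 ± 0.0359) and Bmx (0.069 ± 0.0908; SD, n = 4). Efnb2 was last in IP, and in unbound it overlapped in range with Vcam1 below it but not with Nr2f2 above it. The exon models used for counting are not known here, so these per-length values depend on GENCODE M21 lengths.

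The IP libraries differed among themselves in a gene-specific way. Efnb2, Unc5b, Gkn3, Vcam1 and Vwf were highest in IP 4, whereas Hey1, Ephb4 and Nr2f2 were lowest there. The 5 arterial genes summed to between 194 and 207 CPM and the 4 venous genes to between 370 and 399 CPM in IP. In unbound RNA the sums were 120 to 147 CPM and 43.6 to 77.1 CPM.

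Other genes of vessel zones, from lists of 16 arterial, 8 capillary and 15 venous genes, were mostly higher in IP. The shares over all genes tested were 20.5% called higher and 18.9% called lower. Of the 16 arterial genes, 15 were higher, with a median log2 fold change of 4.39. Within index ACAGTG, Jag1, Vegfc, Fbln5 and Edn1 lost their calls (edgeR adjusted p 0.0692 to 0.435), as did Dll4. Vegfc and Fbln5 also lost theirs when IP 4, unbound 3 or unbound 4 was left out. Sox17, a transcription factor that acts upstream of arterial Notch signalling, had 60.4 CPM in IP and 0.198 CPM in unbound (8.29 ± 0.62), and the secreted protein gene Cytl1, with 43.8 ± 39.2 CPM in IP (SD, n = 3), was at 8.05 ± 0.94 (7.01 without IP 4). The gap junction gene Gja5, connexin 40, was at 4.22 ± 0.89 (5.33 without unbound 4, and adjusted p = 0.0701 within index GTGAAA, with its single IP library), and the Notch ligand gene Dll4 at 3.45 ± 0.81 (adjusted p = 0.0791 within index ACAGTG). Igfbp3 had 11.8 CPM in IP and 12 CPM in unbound (-0.02 ± 0.39, adjusted p = 0.975). Of the 8 capillary genes 5 were higher, among them Mfsd2a, the barrier lipid transporter (2.81 ± 0.36), whereas the transferrin receptor gene Tfrc, which many brain cells express, was at -0.22 ± 0.23 (adjusted p = 0.487).

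Of 14 tested venous genes outside the 4, 11 were higher and 1 was lower, with a median of 4.24. Among the 11, Nrp2 had 31.8, 40.8 and 218 CPM in IP 1, 2 and 4. It was at 1.73 over all libraries and 0.32 without IP 4 (edgeR adjusted p = 0.5). Its call was also lost without any single unbound library. Within index ACAGTG the calls of Nrp2, Selp and Ch25h were lost. The amino acid transporter gene Slc38a5, a venous and capillary marker in brain, had 25.1 CPM in IP and 0.299 CPM in unbound (6.42 ± 0.70, and 7.27 without unbound 3). The apelin receptor gene Aplnr was at 7.10 ± 0.97 (6.36 without IP 2, 8.06 without unbound 4). It had 298, 511 and 101 counts in IP 1, 2 and 4, but only 0, 1, 2 and 5 counts in unbound 1 to 4. Its unbound level was thus near the detection limit, and its fold change is uncertain in size. Ackr1, the chemokine-binding receptor of venules, had 10.9 CPM in IP and 19.4 CPM in unbound (-0.83 ± 0.51, adjusted p = 0.221). Leaving out IP 4 moved Ackr1 to -1.67, a call (adjusted p = 0.0192). Plvap, a diaphragm protein of fenestrated vessels, fell by 1.68 (adjusted p = 0.0172). That call was lost when IP 2 (adjusted p = 0.0763) or IP 4 was left out (0.0565), and within index GTGAAA (0.06). The selectin gene Sele had 22, 0 and 1 counts in IP 1, 2 and 4 and 0 counts in every unbound library, and did not pass the filter.

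**Figure D4:**
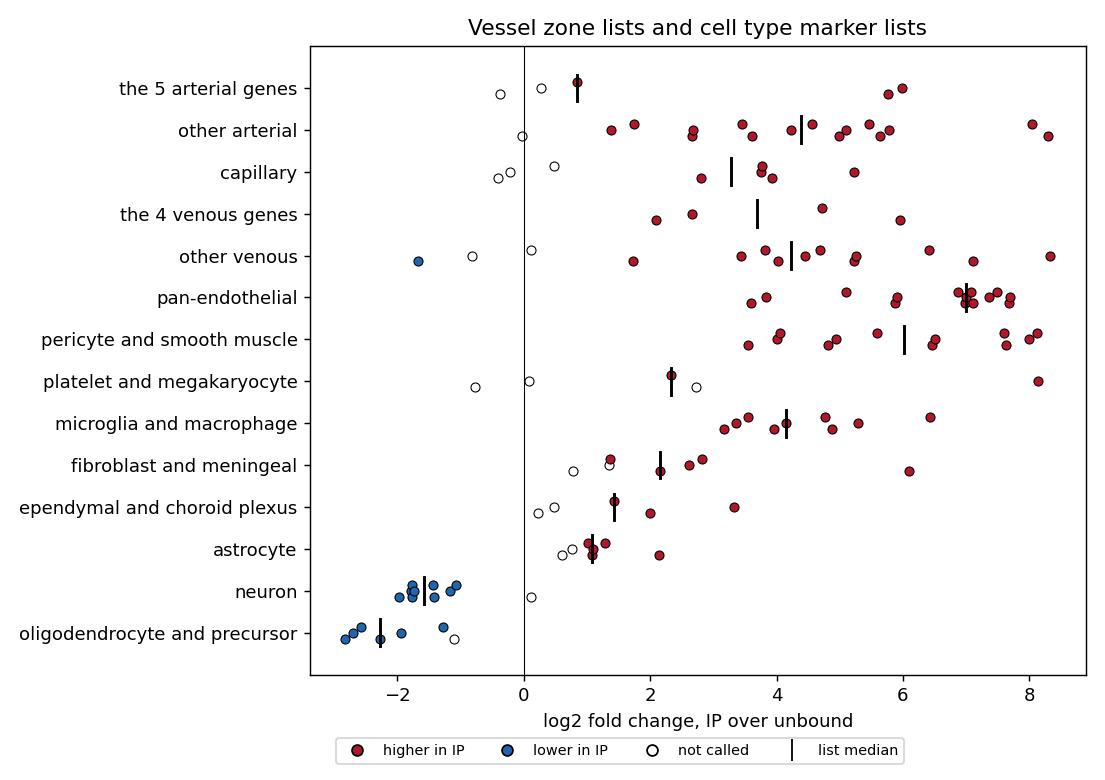
Log2 fold change of IP over unbound for each tested gene of the vessel zone and cell type lists, coloured by the call at adjusted p 0.05, with a bar at each list's median. The pan-endothelial median is 6.99 and that of the other arterial list 4.39, while neuron and oligodendrocyte genes lie mostly below 0.

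The lists of partners are to be read beside the 20.5% of all tested genes called higher and the 18.9% called lower. Of 12 Notch pathway genes 8 were higher and none lower, with Heyl, a Hey relative known from mural cells, at 4.89 ± 0.26 and Dlk1 at -0.75 ± 0.31 (adjusted p = 0.0783). Dlk1 was called lower when IP 4 (-1.17, adjusted p = 0.012) or unbound 2 was left out (-0.89, adjusted p = 0.0314), and over all libraries with voom (-0.81, adjusted p = 0.0451) or the index as a covariate (-0.70, adjusted p = 0.0307). Of 10 Eph and ephrin genes 3 were higher and 5 lower. The receptor gene Epha2 was at 4.55 ± 0.82 and Ephb1, a neuronal receptor gene, at -1.92 ± 0.26. The higher count was 1 within index ACAGTG and without IP 1, IP 2, unbound 3 or unbound 4, and the lower count was 3 without IP 1, IP 2, unbound 1 or unbound 4. Of 11 netrin, UNC5 and partner genes 3 were higher and 5 lower. The lower count was 2 without IP 1 or IP 2, and 3 without unbound 3, without unbound 4 or within index ACAGTG. Robo4, an endothelial receptor that binds UNC5B, was at 6.07 ± 0.44. Unc5d, a relative of Unc5b, fell by 1.56 on the log2 scale (adjusted p = 0.0126), with an adjusted p of 0.0599 when IP 2 was left out.

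The Tec kinase gene Tec, a relative of Bmx, was at 5.98 ± 0.69, and Hey2, the Hey family member of large arteries, at 4.56 ± 0.28. Of 6 partners of Vwf and Vcam1, 2 were higher and 1 was lower (1 and 0 within index ACAGTG), counts too small to set apart from the shares over all genes. Itga4 and Itgb1, the subunits of the integrin that binds Vcam1, were at 2.43 ± 0.46 and 2.07 ± 0.21. F8, the coagulation factor carried by von Willebrand factor, fell by 1.93 (adjusted p = 0.0081).

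Profiles over the 7 libraries were compared by the root mean square difference of log2 CPM after centring each gene on its own mean. Closest to Bmx was Gimap4 (0.217) and closest to Gkn3 was Slco2b1 (0.234). Ephb4 lay nearest to Fn1 (0.265), Vwf to Ccrl2 (0.367) and Vcam1 to Kcnk6 (0.239). The flatter profiles had nearer neighbours, with Dpf2 at 0.0788 from Hey1, Ptprz1 at 0.0889 from Unc5b, Fam117a at 0.0999 from Nr2f2 and Ints7 at 0.123 from Efnb2. These distances are descriptions over libraries that differ mainly by fraction.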

How the data were processed

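The 7 deposited files hold whole-number read counts per gene symbol that the authors did not normalize. The submitters' processing notes name mm10, STAR 2.0.0e and HTSeq. The annotation and strand setting are not given in these sources. Rows that name no gene (6 per file) took between 42% and 59.8% of the listed reads and stayed out of library sizes and tests. Reads labelled ambiguous took 1.43% to 1.63% in IP and 7.26% to 11.5% in unbound, without overlap. Reads labelled multi-mapping took 33.0% to 39.6% in IP and 17.6% to 34.6% in unbound, with overlap. Whether these differences affect the fold changes, including those of Ephb4, Nr2f2 and Vcam1, was not tested.

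IP and unbound were compared in R 4.3.3 using edgeR 4.0.16, with filterByExpr, TMM scaling and robust quasi-likelihood F tests (2-sided, Benjamini-Hochberg over 17654 genes, threshold 0.05). CPM refer to effective library sizes, and the ± of a log2 fold change is its standard error. Ratios of counts, with 0.5 added to each, were compared by an exact permutation test on the absolute difference, and doubling the 1-sided p would give 0.0571. Floors of 3 counts cover counting error only. The members and lists were chosen with earlier results of these data known, so lists are described by counts and medians. The names given are the members, genes of the vessel zone lists, the highest, lowest and most abundant gene of each other list, and the nearest profiles (mean CPM of at least 1, prior of 0.1 CPM, provisional symbols passed over). Stard8 and Rpl10a are named as checks of the line, and the remaining tested platelet markers are named beside Vwf. A gene of the relatives list is not reported here.

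The statistics were tested on simulated data. No pair of libraries within a group agreed within sampling noise (chi-square per degree of freedom 82.5 to 1290). Tried in addition were RLE factors, plain library sizes, the unfiltered table, DESeq2 1.42.0, voom in limma 3.58.1, a replicate block, the index as covariate, each index by itself, and every library left out in turn. Gene coordinates come from GENCODE M21 (GRCm38).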

Additional observations from a re-analysis of the deposited data

Results flagged for a closer look

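Efnb2 in unbound 2, at 10.5 CPM, lay far below the other unbound libraries (18.1 to 19.4 CPM): its gap to the nearest of them was 0.853 of the group's range, and the limit for 4 values (Dixon's 95% critical value) is lower. Of 11 sets of unbound values looked at, this 1 was past the limit, and chance alone gives about 1 in 20. Without unbound 2 the Efnb2 log2 fold change was 0.11 (adjusted p = 0.769).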

How the results depend on the processing

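The 9 fold changes kept their sign under all 16 alternatives and the 7 calls held, except that Hey1 lost its call within index ACAGTG. The comparison within index GTGAAA has a single IP library and so no replicate of IP. With voom Bmx was 7.43 and Gkn3 6.50, and with the replicate block Bmx was 7.63. Within index ACAGTG and index GTGAAA Tec was 7.92 and 5.02, Mfsd2a 3.54 and 1.95, Epha2 5.34 and 3.79, and Aplnr 9.43 and 4.93. Within index ACAGTG 2190 genes were called higher and 1650 lower, against 3622 and 3328 over all libraries, and leaving out a library gave 2796 to 4050 higher and 1751 to 3632 lower. Scaling by library size only moved the median log2 fold change of all genes to 0.01, against -0.10 with TMM, with no change of call among the 9. The log2 ratio differences ranged from -4.90 to -4.38 for Efnb2 to Ephb4 and from -1.36 to -1.05 for Hey1 to Nr2f2 without each library, where no p below 0.0667 is possible. The replicate numbers were not taken to pair the libraries in the main fit, since the correlation of deviations was over 0.1 in 1 of 3 pairs (-0.0323, 0.0482 and 0.189). IP 2 and IP 4 correlated best with the unbound library of their own number, and IP 1 with unbound 2, so the libraries may still be paired. With the replicate block, in which unbound 3 has no partner, the ratio differences were -4.73 and -1.24 (smallest possible p 0.25), 3154 genes were higher and 2618 lower, and none of the 9 calls changed. Against Pecam1 alone in place of the endothelial sum, the log2 differences were -6.84 for Efnb2, -6.27 for Hey1, -7.49 for Unc5b, -5.03 for Nr2f2 and -4.31 for Vcam1, further from 0 than against the sum, and against Cdh5 alone that of Gkn3 was 0.031, against -0.0097. The lower counts of the neuron, netrin and Eph lists depended on IP 1 and IP 2, as given above. Some genes near 0, uncalled over all libraries, changed sign. Ependymal markers, 3 of 5 higher (20.5% of all genes tested), numbered 1 without IP 1 (16% of all genes) and 0 within index ACAGTG (12.4%). Without single libraries Igfbp3 ranged from -0.30 to 0.37, Tmsb10 from -0.21 to 1.08 (called higher at 1.08, without unbound 2, adjusted p = 0.0266), Nr2f6, a relative of Nr2f2, from -0.24 to 0.23 and Th from -0.0021 to 0.23. Igfbp3 was 0.13 with library size only and 0.056 with voom, Nr2f6 0.096 with library size only and 0.011 with voom, Tmsb10 -0.13 within index ACAGTG, and Hk1 0.044 within index GTGAAA. The cause of these differences was not tested. Depth limits Bmx and Gkn3, with 46 and 23 unbound counts in all, and likewise Aplnr, with at most 5 counts in any unbound library.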
